A study of Homo sapiens with 6 samples.

Results

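The values described here belong to 58 readthrough genes and to the 115 genes that they join. A readthrough gene is annotated where transcription runs past the end of one gene into the next gene on the same strand, so that a single RNA holds exons of both. The 58 were taken by name from a table of 27238 rows: 85 rows were named as 2 gene names with a hyphen between them, both of which were rows of their own, 2 of these shared a repeated name, and 25 of the others had a mean under 0.1 FPKM over the 6 libraries. FPKM, which divides the fragments of a row by its length and by the mapped fragments of the library, is a level per length, so levels of different genes can be set side by side. The mean FPKM over all libraries chose the members; the difference between the groups did not enter the rule. RAB4B is joined by 2 of the readthrough genes, MIA-RAB4B and RAB4B-EGLN2, and was counted once among the joined genes.

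The RNA came from QBC-939, given in the labels as a human cholangiocarcinoma line, which is a cancer line of the bile duct. The tested cells received an shRNA against Bmi1 and the control cells a scrambled shRNA, both for 48 h per the treatment protocol (the design text says siRNA where it speaks of the control), with 3 libraries in each group from separate transfections per the study's design text. Both groups share the line and its growth in DMEM with fetal bovine serum. The question of the comparison, as far as the title states it, was how the mRNA profile differs after the knockdown of Bmi1. BMI1 is a subunit of Polycomb repressive complex 1, which keeps developmental genes silent.

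Most mRNAs end where the cleavage and polyadenylation machinery recognises a poly(A) signal, cuts the nascent RNA and adds a tail, after which the polymerase is released downstream. Where that signal is passed over and the next gene lies close by on the same strand, splicing can remove the last exon of the first gene, the space between the genes and the first exon of the second, which leaves a chimeric mRNA. Some of these RNAs encode a fused protein, and others carry a frame that stops early and are substrates of nonsense-mediated decay. Because nearly all of such an RNA is sequence that its parent genes hold as well, short reads tell it apart mainly where they cross the junction between the genes.

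In GENCODE 29 on GRCh38, all 58 readthrough genes were annotated on the strand of both genes that they join, with the first-named gene upstream. Of the 58, 55 were typed protein coding and 3 processed transcript. The joined genes overlapped in 6 sets; across all sets the gap between them had a median of 3261 bases and reached 101894, and 45 sets had a gap under 10000 bases. A median of 97.3% of the exonic bases of a readthrough gene lay in exons of the genes it joins, and 18 readthrough genes had no exonic base of their own. For 49 of the 58 an annotated splice junction ran directly from the upstream into the downstream gene. The sequences below are such coding junctions for the sets on which the results turn, because these junctions are what separates a readthrough RNA from its parents. They are annotated sequence and were not read from these libraries. Lower case marks the last 30 bases of the upstream gene's exon and capitals the first 30 bases of the downstream gene's exon; each part was found in the gene named for it, and the whole sequence was found in neither. The first 2 lines share the same ARPIN exon and enter AP3S2 at different exons, and the 2 lines of RPL36A-HNRNPH2 leave RPL36A at different exons and enter HNRNPH2 at the same base.
ARPIN-AP3S2, chromosome 15, minus strand, from base 89903216 to base 89871546: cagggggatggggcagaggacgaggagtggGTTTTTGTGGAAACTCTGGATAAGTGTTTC
ARPIN-AP3S2, chromosome 15, minus strand, from base 89903216 to base 89889140: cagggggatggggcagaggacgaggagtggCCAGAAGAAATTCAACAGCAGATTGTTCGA
RPL36A-HNRNPH2, chromosome X, plus strand, from base 101391822 to base 101411936: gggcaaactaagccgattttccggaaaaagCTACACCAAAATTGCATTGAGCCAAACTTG
RPL36A-HNRNPH2, chromosome X, plus strand, from base 101395457 to base 101411936: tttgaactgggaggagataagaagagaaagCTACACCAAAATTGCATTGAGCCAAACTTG
PTGES3L-AARSD1, chromosome 17, minus strand, from base 42970289 to base 42964237: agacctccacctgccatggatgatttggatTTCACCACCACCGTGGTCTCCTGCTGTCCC
NME1-NME2, chromosome 17, plus strand, from base 51161272 to base 51166827: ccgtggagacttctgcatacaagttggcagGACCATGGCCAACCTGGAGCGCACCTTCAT
RNASEK-C17orf49, chromosome 17, plus strand, from base 7014277 to base 7015062: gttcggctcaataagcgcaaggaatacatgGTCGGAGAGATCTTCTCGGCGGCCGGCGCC
PPAN-P2RY11, chromosome 19, plus strand, from base 10111022 to base 10113633: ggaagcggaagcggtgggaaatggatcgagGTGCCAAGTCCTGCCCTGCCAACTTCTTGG

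BMI1 was measured at 1.49, 1.19 and 2.65 FPKM in the Bmi1 shRNA libraries, against 6.65, 5.34 and 6.09 FPKM in the control libraries. The log2 fold change was -1.78 (SE 0.27, limma's adjusted p = 0.00356), with p = 0.1 by exact permutation of the libraries (two-sided), which is as small as 3 against 3 can give. COMMD3, the gene just upstream of BMI1 on the same strand, was called higher, at 16.7 ± 1.16 FPKM in Bmi1 shRNA and 11.8 ± 0.506 FPKM in control cells (SD, n = 3 each; log2 fold change 0.50, SE 0.07, adjusted p = 0.00295), and took the other sign, -0.26, with the trend of GC and length taken out. The readthrough of COMMD3 into BMI1 was not analysed here.

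The FPKM values summed to between 352800 and 360371 in the Bmi1 shRNA libraries and between 332910 and 341268 in the control libraries; read numbers are unknown, so no counting interval can be given. Of 10 bile duct markers 9 had a mean of at least 1 FPKM, with single markers on either side: KRT19 measured 195 to 222 FPKM in Bmi1 shRNA and 279 to 291 FPKM in control libraries, and SPP1 19.9 to 23.9 FPKM in Bmi1 shRNA and 5.81 to 7.14 FPKM in control libraries. The summed level of the bile duct markers was 433 to 488 FPKM in Bmi1 shRNA and 532 to 628 FPKM in control libraries, and the range among the controls was mostly that of CLDN4, at 115, 0.687 and 86.4 FPKM. Of 4 hepatocyte markers with a row, 2 were at 1 FPKM or more (SERPINA1 and TTR), and the list summed to 228 to 240 FPKM in Bmi1 shRNA and 156 to 166 FPKM in control libraries. Of 5 intestinal markers with a row, KRT20 and VIL1 were above 1 FPKM and CDX2 and MUC2 near 0, with sums of 158 to 185 and 171 to 182 FPKM in Bmi1 shRNA and control libraries. Blood markers summed to 7.73 to 9.27 FPKM in Bmi1 shRNA and 11.8 to 13.0 FPKM in control libraries, nearly all of it CD68; the 3 fibroblast, 2 endothelial and 1 adipocyte markers with a row all had means under 1 FPKM. The part of these differences in the results below was not tested.

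Few of the readthrough genes were called. Calls are at an adjusted p under 0.05 (Benjamini-Hochberg) in a limma fit to the 17473 rows averaging 0.1 FPKM or more. Fold changes are differences of log2(FPKM + 0.1), which makes those of low genes too small. All 58 readthrough genes entered the fit because their rule holds the same threshold. Of them 3 were called higher and 4 lower, 12.1% in all, where 40.5% of all tested rows were called (21.6% higher and 18.9% lower). Of the 29 readthrough genes with a mean of at least 1 FPKM, 6 were called, where 53.4% of rows at that level were; of the 29 below it, 1 was called, where 18.4% were. The groups did not overlap in 10 of the 58, where 53.8% of all tested rows did not. In these bulk libraries fewer cells with an RNA and less of it per cell cannot be told apart.

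ARPIN-AP3S2 had the largest change among the called readthrough genes. ARPIN inhibits the Arp2/3 complex, which nucleates branched actin, and AP3S2 is the sigma subunit of the adaptor complex AP-3, which sorts cargo between endosomes and lysosomes. The readthrough gene ARPIN-AP3S2 measured 12.6, 10.8 and 14.3 FPKM in the Bmi1 shRNA libraries, against 0.757, 0.877 and 0.585 FPKM in the control libraries. All 3 Bmi1 shRNA values were above all control values, and the means differed 17-fold (log2 fold change 3.92, SE 0.16, limma's adjusted p = 0.00026). With any 1 library left out the log2 fold change was 3.78 to 4.04 (adjusted p at most 0.00315). Both parent genes went the other way.

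ARPIN measured 4.18, 3.37 and 4.10 FPKM in the Bmi1 shRNA libraries, against 5.92, 6.41 and 6.29 FPKM in the control libraries (log2 fold change -0.67, SE 0.10, adjusted p = 0.00328). AP3S2 measured 3.32, 2.89 and 2.99 FPKM in the Bmi1 shRNA libraries, against 7.81, 8.04 and 7.92 FPKM in the control libraries (log2 fold change -1.34, SE 0.08, adjusted p = 0.000415). The groups did not overlap for either gene. Within the set of 3 rows, the readthrough gene held 62.6%, 63.2% and 66.9% of the summed FPKM in the Bmi1 shRNA libraries, against 5.22%, 5.72% and 3.95% in the control libraries (exact two-sided permutation p = 0.1, the smallest possible). Once the FPKM of the readthrough gene was added to that of each parent, both parents were higher instead of lower: ARPIN by 1.22 (SE 0.11, adjusted p = 0.000692) and AP3S2 by 0.84 (SE 0.10, adjusted p = 0.00136) on the log2 scale. The direction given for either parent thus depends on how the deposited values divide the locus between its 3 rows.

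**Figure D1:**
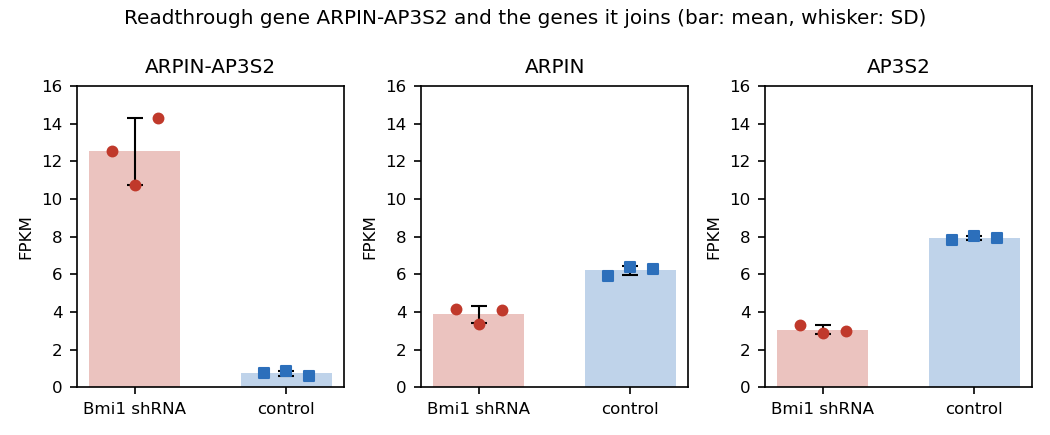
FPKM of ARPIN-AP3S2, ARPIN and AP3S2 in each library of the Bmi1 shRNA group (circles) and the control group (squares); bars are means and whiskers SDs of 3 libraries. The readthrough gene sits between 10.8 and 14.3 FPKM in Bmi1 shRNA and under 0.9 FPKM in control libraries, while both joined genes are lower in Bmi1 shRNA.

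The annotation gives ARPIN-AP3S2 hardly any sequence of its own. GENCODE 29 lists 2673 exonic bases for it on the minus strand of chromosome 15, of which 1 base lies outside the exons of its parents, and the parents lie 367 bases apart. ARPIN runs from base 89895006 to 89912956 and AP3S2 from 89830599 to 89894638. By this annotation, fragments that could be assigned to the readthrough gene alone are mainly those spanning the junctions printed above, within a read or between paired reads. The gene models behind the deposited values are not known and may hold other exons. ARPIN-AP3S2 was also the one set in which a readthrough gene and a parent gene were called in opposite directions, and that held under every alternative but the one that adds the readthrough FPKM to the parents, which leaves no such set. Leaving out single libraries added sets of this kind: PALM2-AKAP2 without control replicate 1, and RPL36A-HNRNPH2 without Bmi1 shRNA replicate 1. Without control replicate 3, RBM14-RBM4, ARL2-SNX15 and SLX1A-SULT1A3 were added. PALM2-AKAP2, ARL2-SNX15 and RPL36A-HNRNPH2 were each listed at 0 in 3 libraries, and such values can be failed estimates. PALM2-AKAP2 measured 0, 0.0293 and 0 FPKM in Bmi1 shRNA, against 0, 0.502 and 1.17 FPKM in control libraries. ARL2-SNX15 measured 0, 0 and 0.0696 FPKM in Bmi1 shRNA, against 2.31, 5.58 and 0 FPKM in control libraries. In both, the control library left out was listed at 0, so nothing is drawn from either set.

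The other called readthrough genes changed by much less. RNASEK-C17orf49 joins ribonuclease kappa to C17orf49, a chromatin-associated protein. It measured 21.5, 21.6 and 17.7 FPKM in the Bmi1 shRNA libraries, against 13.4, 12.3 and 15.7 FPKM in the control libraries (log2 fold change 0.55, SE 0.12, adjusted p = 0.0123). The groups did not overlap, and the call held with any 1 library left out (adjusted p at most 0.0442). RNASEK, at 43.6, 44.7 and 51.0 FPKM in Bmi1 shRNA and 41.5, 43.6 and 42.6 FPKM in control libraries, was not called, and neither was C17orf49, at 0.993, 1.46 and 1.70 FPKM against 0.897, 1.84 and 1.59 FPKM. The readthrough row was thus several times higher than that of its downstream gene in every library.

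DNAJC25-GNG10 joins a J-domain co-chaperone to a G protein gamma subunit. It measured 6.32, 5.62 and 6.86 FPKM in the Bmi1 shRNA libraries, against 3.85, 5.10 and 2.98 FPKM in the control libraries (log2 fold change 0.67, SE 0.19, adjusted p = 0.033). The groups did not overlap, but the call was lost when any library other than control replicate 2 was left out, with adjusted p up to 0.0938. DNAJC25 and GNG10 each had a log2 fold change of 0.21 and neither was called.

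PPAN-P2RY11 was the one set in which all 3 rows were called in the same direction. PPAN takes part in ribosome biogenesis and P2RY11 is a receptor for extracellular ATP. The readthrough gene PPAN-P2RY11 measured 1.14, 1.31 and 1.76 FPKM in the Bmi1 shRNA libraries, against 2.33, 4.45 and 2.32 FPKM in the control libraries (log2 fold change -1.01, SE 0.29, adjusted p = 0.0307). The groups did not overlap. PPAN fell to 9.70, 9.70 and 10.1 FPKM in Bmi1 shRNA, against 13.6, 11.7 and 13.8 FPKM in control libraries (log2 fold change -0.40, adjusted p = 0.00899), and P2RY11 to 0.818, 0.573 and 0.795 FPKM, against 1.002, 1.09 and 1.25 FPKM (-0.56, adjusted p = 0.0355). Leaving out replicate 1 or 2 of the Bmi1 shRNA group ended the readthrough call (adjusted p up to 0.0931), and that of P2RY11 without any 1 of the control replicates or Bmi1 shRNA replicates 2 and 3.

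SYS1-DBNDD2 joins SYS1, a Golgi membrane protein, to DBNDD2, a dysbindin domain protein. It measured 4.10, 3.64 and 4.42 FPKM in the Bmi1 shRNA libraries, against 6.74, 5.00 and 5.32 FPKM in the control libraries (log2 fold change -0.47, SE 0.13, adjusted p = 0.0318). SYS1 fell as well, to 5.68, 6.78 and 6.32 FPKM in Bmi1 shRNA against 7.70, 7.85 and 8.81 FPKM in control libraries (-0.37, adjusted p = 0.0205), while DBNDD2, the most abundant row of the set at 36.9 to 39.5 FPKM in Bmi1 shRNA and 42.0 to 45.3 FPKM in control libraries, was not called (-0.16, adjusted p = 0.061). The groups overlapped for neither SYS1-DBNDD2 nor SYS1. SYS1-DBNDD2 was not called when replicate 1 or 3 of the control group was left out, nor without replicate 1 or 2 of the Bmi1 shRNA group (adjusted p up to 0.0918). The call of SYS1 was lost without replicate 3 of the control group and without replicate 1 of the Bmi1 shRNA group.

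BORCS8-MEF2B and MSH5-SAPCD1 fell while neither of their joined genes was called. BORCS8 is a subunit of the BORC complex, which positions lysosomes, MEF2B is a MADS-box transcription factor, and MSH5 is a MutS homologue of meiotic recombination. BORCS8-MEF2B measured 1.12, 1.09 and 0.431 FPKM in the Bmi1 shRNA libraries, against 2.13, 1.82 and 1.85 FPKM in the control libraries (adjusted p = 0.0324); without any 1 of the control libraries it was not called (adjusted p up to 0.0885). MSH5-SAPCD1 measured 0.261, 0.424 and 0.149 FPKM in Bmi1 shRNA, against 0.956, 0.729 and 0.695 FPKM in control libraries (adjusted p = 0.014), and kept its call with each library left out (adjusted p at most 0.048). The means were 0.456 and 0.35 times those of the control cells. With the trend of GC and length taken out, the calls of BORCS8-MEF2B, MSH5-SAPCD1, PPAN-P2RY11 and DNAJC25-GNG10 were all lost, and those of ARPIN-AP3S2, RNASEK-C17orf49 and SYS1-DBNDD2 were kept.

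**Figure D2:**
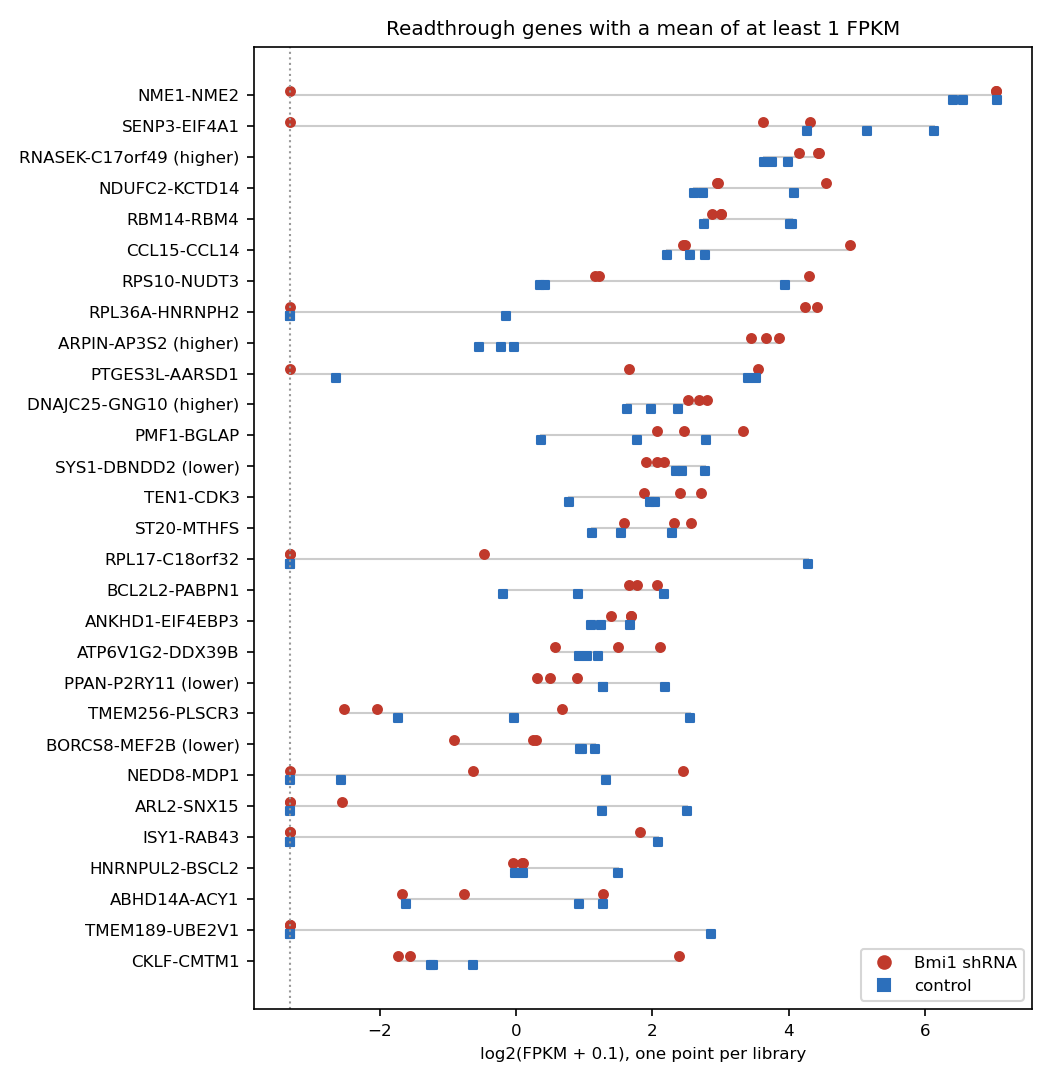
Levels of the 29 readthrough genes with a mean of at least 1 FPKM, one point per library on a log2(FPKM + 0.1) axis, Bmi1 shRNA as circles and control as squares; the dotted line marks libraries listed at 0, and called genes carry their direction. The groups of ARPIN-AP3S2 stand far apart, while NME1-NME2 runs between 0 and 132 FPKM within the Bmi1 shRNA group.

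Most of the abundant readthrough genes differed more between libraries of one group than between the groups. NME1-NME2, which joins a pair of nucleoside diphosphate kinases, was the highest of all and measured 132, 132 and 0 FPKM in the Bmi1 shRNA libraries, against 132, 84.6 and 93.7 FPKM in the control libraries. Its parents moved little between libraries: NME1 was called higher at 149.5 ± 3.92 FPKM in Bmi1 shRNA and 102 ± 6.90 FPKM in control cells (SD, n = 3 each; log2 fold change 0.56, adjusted p = 0.00129), and NME2 had a log2 fold change of 0.24 (adjusted p = 0.00787). Bmi1 shRNA replicate 3, where the readthrough row was listed at 0, had 148 FPKM of NME1 and 484 FPKM of NME2, like the other 2 libraries of its group. An exact 0 in a table of estimates can be a failed estimate, so such rows are given by library and without a fold change. Where an adjusted p or a call is given for such a row, the fit took each 0 as listed, and the same doubt holds.

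SENP3-EIF4A1 joins a SUMO protease of the nucleolus to the RNA helicase of the cap-binding complex eIF4F. It measured 19.7, 12.3 and 0 FPKM in the Bmi1 shRNA libraries, against 35.3, 70.1 and 19.2 FPKM in the control libraries, and was not called (adjusted p = 0.189). EIF4A1 measured 82.2, 84.7 and 87.1 FPKM in Bmi1 shRNA, against 71.6, 49.1 and 80.5 FPKM in control libraries, so that control replicate 2, with the highest readthrough level, had the lowest EIF4A1. With the readthrough FPKM added, the spread of EIF4A1 within the groups, as a residual SD of log2(FPKM + 0.1), was 0.123, against 0.265 for EIF4A1 alone.

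RPL36A-HNRNPH2 and its parent HNRNPH2 moved in opposite directions between libraries. RPL36A is a protein of the large ribosomal subunit and HNRNPH2 a splicing regulator that binds G-rich RNA. The readthrough gene measured 0, 18.8 and 21.3 FPKM in the Bmi1 shRNA libraries, against 0, 0.798 and 0 FPKM in the control libraries (adjusted p = 0.188). HNRNPH2 measured 34.8, 5.52 and 3.83 FPKM in Bmi1 shRNA, against 20.6, 20.7 and 20.4 FPKM in control libraries (adjusted p = 0.272). The 2 libraries with a high readthrough level were the 2 with a low HNRNPH2 level. With the readthrough added, HNRNPH2 came to 34.8, 24.3 and 25.1 FPKM in Bmi1 shRNA, against 20.6, 21.5 and 20.4 FPKM in control libraries, its residual SD was 0.204, against 1.20 for HNRNPH2 alone, and it was not called (log2 fold change 0.41, adjusted p = 0.057). Without Bmi1 shRNA replicate 1, the readthrough gene was called higher (adjusted p = 0.00952) and HNRNPH2 alone was called lower (log2 fold change -2.14, adjusted p = 0.00368). Replicate 1 was the Bmi1 shRNA library listed at 0 for the readthrough gene. Control values of 0, which can be failed estimates, remained in that fit. RPL36A was called higher in both forms, by 0.54 alone (adjusted p = 0.00558) and 0.61 with the readthrough added (adjusted p = 0.00184); its many near-identical pseudogenes make its own level uncertain.

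CCL15-CCL14 joins neighbouring CC chemokine genes. It measured 5.37, 29.7 and 5.47 FPKM in the Bmi1 shRNA libraries, against 6.73, 5.73 and 4.52 FPKM in the control libraries, and was not called (adjusted p = 0.393). CCL15 measured 34.1, 13.3 and 33.1 FPKM in Bmi1 shRNA, against 27.7, 23.3 and 24.6 FPKM in control libraries. Bmi1 shRNA replicate 2 was thus the highest library for the readthrough row and the lowest for CCL15, and its readthrough share of the set was 69.01%, where the other 5 libraries had 13.5% to 19.6%. CCL15 alone was not called (log2 fold change -0.03, adjusted p = 0.961); with the readthrough added it was called higher (0.39, SE 0.09, adjusted p = 0.0132), and likewise alone without Bmi1 shRNA replicate 2 (0.42, adjusted p = 0.0209). CCL14 had a mean under 1 FPKM.

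PTGES3L-AARSD1 joins a p23-like co-chaperone to a protein with an alanyl-tRNA editing domain, and it varied in both groups. It measured 3.07, 11.6 and 0 FPKM in the Bmi1 shRNA libraries, against 11.4, 0.0596 and 10.5 FPKM in the control libraries. AARSD1 measured 6.65, 3.10 and 8.87 FPKM in Bmi1 shRNA, against 3.46, 9.46 and 2.83 FPKM in control libraries. Over the 6 libraries the order of the AARSD1 levels was close to the reverse of the order of the readthrough levels. Neither row was called (adjusted p = 0.809 and 0.677).

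**Figure D3:**
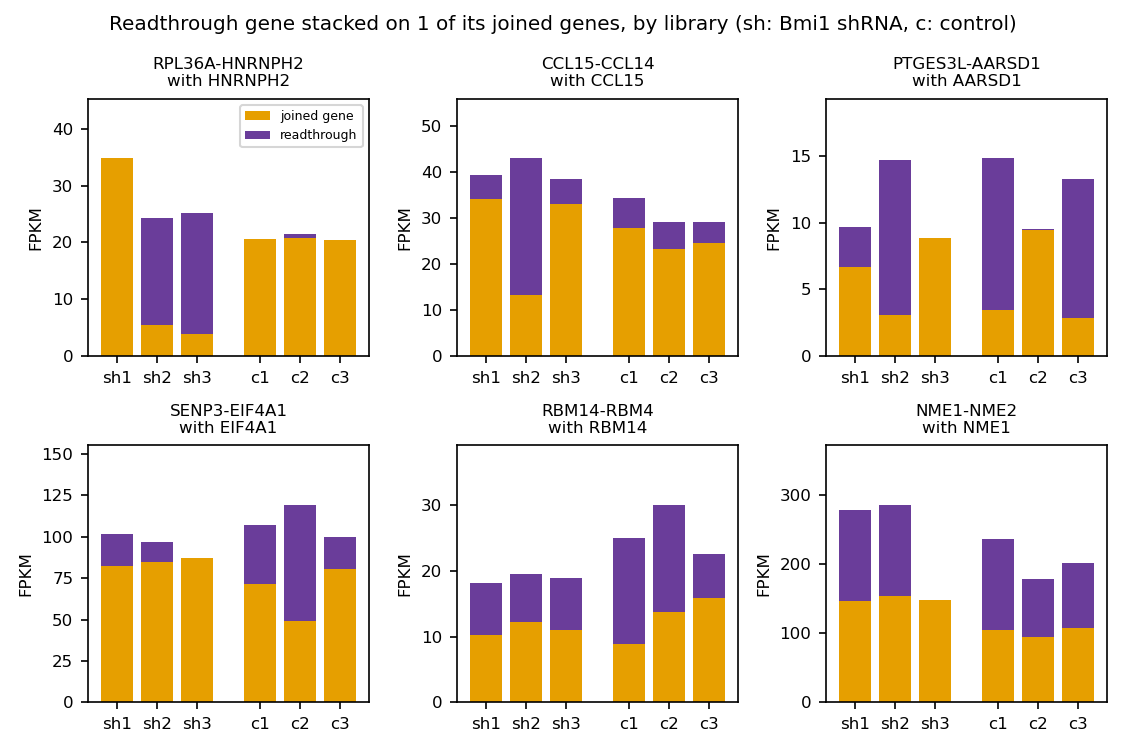
FPKM of a readthrough gene stacked on 1 of the genes it joins, by library, for 6 of the 12 readthrough genes with the highest levels; sh marks Bmi1 shRNA and c control libraries. In the panels of HNRNPH2 and CCL15 the boundary between the rows moves more between libraries than the height of the stack, while for NME1 the stack loses the readthrough part in Bmi1 shRNA replicate 3.

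The remaining abundant members behaved in mixed ways. RBM14-RBM4, which joins a pair of RNA-binding protein genes, measured 7.96, 7.25 and 7.91 FPKM in the Bmi1 shRNA libraries, against 16.03, 16.4 and 6.63 FPKM in the control libraries. Control replicate 3 lay with the Bmi1 shRNA libraries; the row was not called (log2 fold change -0.64, adjusted p = 0.186) and was called lower without that library (-1.06, adjusted p = 0.00329). RBM14 was not called alone (-0.17, adjusted p = 0.564) and was called lower with the readthrough added (-0.44, adjusted p = 0.0185).

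NDUFC2-KCTD14, from a subunit of respiratory complex I and a BTB domain protein, measured 23.3, 7.68 and 7.63 FPKM in the Bmi1 shRNA libraries, against 6.57, 5.97 and 16.7 FPKM in the control libraries. RPS10-NUDT3, from a protein of the small ribosomal subunit and a diphosphoinositol polyphosphate phosphohydrolase, measured 2.23, 19.5 and 2.13 FPKM in Bmi1 shRNA, against 15.2, 1.24 and 1.18 FPKM in control libraries. PMF1-BGLAP, from a kinetochore protein and osteocalcin, measured 9.94, 5.41 and 4.09 FPKM in Bmi1 shRNA, against 1.19, 6.76 and 3.33 FPKM in control libraries. NDUFC2-KCTD14 and RPS10-NUDT3 each had 1 library of either group far above the rest, PMF1-BGLAP was spread out in both groups, and the groups overlapped for all 3. The upstream genes NDUFC2 (log2 fold change 0.43, adjusted p = 0.00341) and RPS10 (0.45, adjusted p = 0.00153) were called higher, as was RPL36A, and PMF1 was not (-0.02, adjusted p = 0.938).

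MIA-RAB4B and RAB4B-EGLN2 share RAB4B, a GTPase of endosomal recycling; MIA is a secreted protein and EGLN2 a prolyl hydroxylase that acts on hypoxia-inducible factors. MIA-RAB4B measured 3.09, 0.0013 and 0.347 FPKM in the Bmi1 shRNA libraries, against 0, 0.125 and 0.448 FPKM in the control libraries. RAB4B-EGLN2 measured 0.0132, 0.408 and 2.41 FPKM in Bmi1 shRNA, against 0.715, 0.242 and 0.248 FPKM in control libraries. The library highest for one of them was not the highest for the other, and the groups overlapped for both. RAB4B itself was not called (log2 fold change 0.06, adjusted p = 0.783). With the FPKM of both readthrough genes added, RAB4B was called higher (0.34, adjusted p = 0.00953) and its residual SD was 0.0662, against 0.202 for RAB4B alone.

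Spread of this kind was common among the members. The median residual SD of log2(FPKM + 0.1) within groups was 0.817 for the readthrough genes, 0.221 for the joined genes and 0.169 for all tested rows. Among the 29 readthrough genes of at least 1 FPKM it was 0.972, where all rows at that level had a median of 0.125; 24 of the 29 lay above the upper decile of those rows, which was 0.344. A residual SD over 1 was found in 14 of these 29 (48.3%), where 1.57% of rows at that level had one, and in 9 of the 29 lower readthrough genes (31.0%), where 7.90% of rows did. At least 1 library was listed at 0 for 18 of the 58, 9 at or above 1 FPKM and 9 below it. Such a library was found for 6.10% of all tested rows, for 0.345% of those of at least 1 FPKM and for 15.9% of those below it. TMEM189-UBE2V1, for example, was listed at 0 in every library but control replicate 2, where it measured 7.18 FPKM, and RPL17-C18orf32 measured 19.3 FPKM in control replicate 2, 0.622 FPKM in Bmi1 shRNA replicate 2 and 0 in the other 4; both were chosen after their values were seen. The size of the SD depends on the pseudocount where a library is listed at 0.

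**Figure D4:**
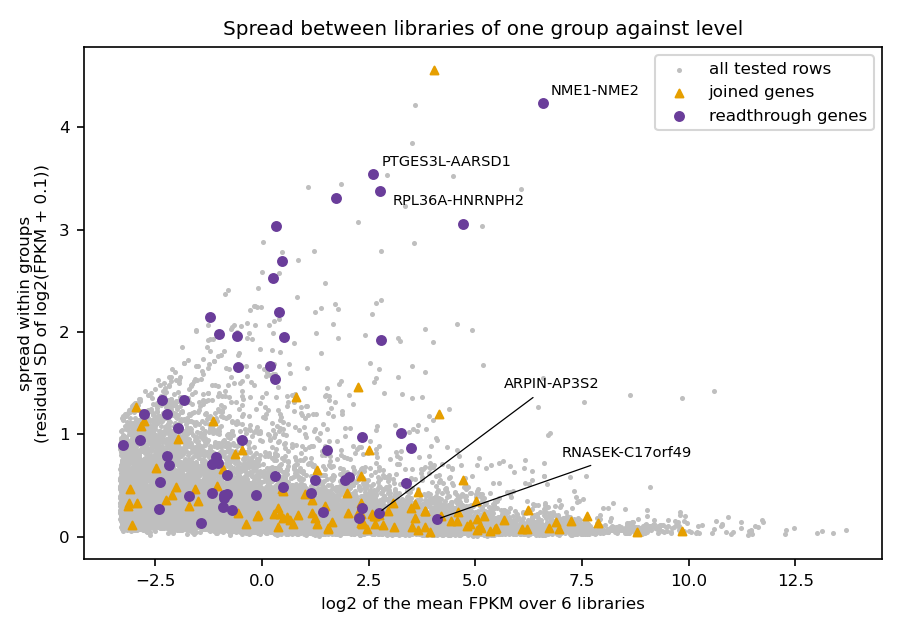
Residual SD of log2(FPKM + 0.1) within groups against the log2 of the mean FPKM over 6 libraries, for all 17473 tested rows (grey), the joined genes (triangles) and the readthrough genes (filled circles). For all tested rows of at least 1 FPKM the upper decile is 0.344, and 24 of the 29 readthrough genes at that level lie above it. ARPIN-AP3S2 and RNASEK-C17orf49 are among the few that do not.

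The spread went with the amount of sequence that the annotation gives to the readthrough gene alone. For the 18 members with no exonic base of their own the median residual SD was 1.34, and 9 of them were listed at 0 in some library. For the 22 members with 1 to 200 own bases it was 0.958, with 7 listed at 0. For the 18 members with over 200 own bases it was 0.528, with 2 listed at 0. The last class had the lowest median level, 0.567 FPKM, against 1.24 and 1.37 FPKM in the other classes; the part of the level in these spreads was not tested. Of the 7 called readthrough genes 6 were in the middle class, 1, DNAJC25-GNG10, had no own base, and none had over 200. Of all tested rows, 18.4% of those of 0.1 to 1 FPKM were called and 53.4% of those of at least 1 FPKM. The part of the level in this split of calls was not tested, so nothing is drawn from it. These are descriptions over genes, which share libraries and are not replicates.

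Adding the readthrough FPKM to the joined genes did not lower their spread in general. For the 23 readthrough genes with a residual SD over 1, 43 of the joined genes were tested, and the spread was smaller with the readthrough added in 22 and larger in 21 (median 0.251 alone and 0.199 with it). The counts are of single joined genes and not of sets. They do not tell how many sets held an exchange like that of HNRNPH2, CCL15 and EIF4A1. NME1 is a case of the opposite kind, with a residual SD of 0.404 with the readthrough added and 0.0752 alone. Across all 115 joined genes, 50 were called with the readthrough added, in a fit that called 40.6% of its rows, and 40 without; 9 of those 40 (ANKHD1, BIVM, C8orf76, CDK3, ERCC5, NME1, NME2, SMG1P6 and ZHX1) lost their call with it. Among named joined genes called both alone and with the readthrough added, the sign turned for ARPIN and AP3S2. The sign also differed for SENP3, BORCS8, C17orf49 and CCL15, none of which was called alone. Their log2 fold changes alone were 0.13, 0.08, -0.03 and -0.03. With the readthrough added they were -0.72 (adjusted p = 0.0369), -0.36 (adjusted p = 0.0351), 0.50 (adjusted p = 0.0112) and 0.39 (adjusted p = 0.0132). Such a sum holds the change of the readthrough row itself, which was 0.55 for RNASEK-C17orf49, a row several times higher than C17orf49. For SENP3, the added row SENP3-EIF4A1 was listed at 0 in Bmi1 shRNA replicate 3.

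**Figure D5:**
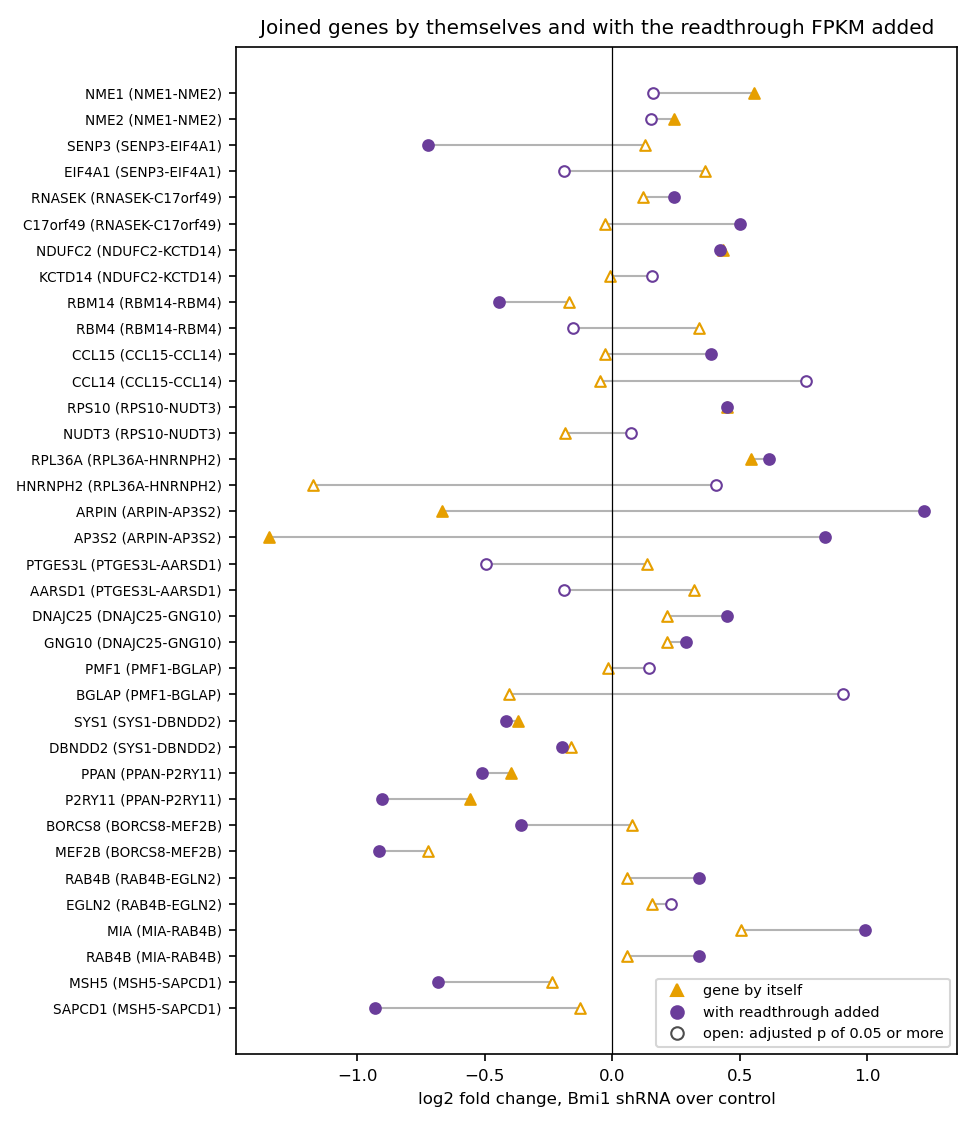
Log2 fold change, Bmi1 shRNA over control, of the joined genes of the named sets, by themselves (triangles) and with the FPKM of their readthrough gene added (circles); filled symbols have an adjusted p under 0.05. ARPIN and AP3S2 cross from below 0 to above it and are filled on both sides.

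The share of called genes among those that the readthrough genes join was near that of all tested rows. It was lower than that of rows of like level among genes of at least 1 FPKM. Of the 108 joined genes that passed the 0.1 FPKM filter, 26 were called higher and 14 lower, 37.0% in all beside the 40.5% of all tested rows, and their median log2 fold change was 0.06, where that of all tested rows was 0.01 and that of the readthrough genes -0.10. Of the 83 joined genes of at least 1 FPKM 41.0% were called, where 53.4% of all rows at that level were. Upstream genes were called in 23 of 56 cases (15 higher, 8 lower) and downstream genes in 17 of 53 (11 higher, 6 lower). In 7 sets both joined genes were called in the same direction: higher in NME1-NME2, NEDD8-MDP1, ZHX1-C8orf76, BIVM-ERCC5 and SYNJ2BP-COX16, and lower in ARPIN-AP3S2 and PPAN-P2RY11. With the readthrough added, both calls were lost in NME1-NME2, ZHX1-C8orf76 and BIVM-ERCC5. The readthrough row was listed at 0 in Bmi1 shRNA replicate 3 for NME1-NME2 and in 3 libraries for BIVM-ERCC5. ZHX1-C8orf76 measured 0.439, 0.259 and 1.96 FPKM in the control libraries. In 2 sets, HNRNPUL2-BSCL2 and URGCP-MRPS24, the upstream gene was called lower and the downstream gene higher. At least 1 joined gene was called while the readthrough gene was not in 28 sets, the readthrough gene alone was called in 4, and 23 sets held no call.

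Outside the named sets, single joined genes were called while their readthrough row did not pass the test; these were chosen after their values were seen. FXYD2, the gamma subunit of the sodium-potassium pump, measured 24.3, 23.5 and 24.1 FPKM in the Bmi1 shRNA libraries, against 7.22, 6.66 and 6.87 FPKM in the control libraries (log2 fold change 1.78, SE 0.06, adjusted p = 0.000177). FXYD6-FXYD2 measured 1.04, 0.249 and 0.79 FPKM in Bmi1 shRNA, against 0.115, 0.292 and 0.183 FPKM in control libraries (1.299, adjusted p = 0.0716). The groups overlapped for the readthrough row and not for FXYD2. CDK3, a cyclin-dependent kinase, was lower (-1.36, SE 0.31, adjusted p = 0.0144), and TEN1-CDK3 was not called (0.74, adjusted p = 0.173); with the readthrough added CDK3 was at 0.18 and not called (adjusted p = 0.511). NEDD8, the ubiquitin-like protein that activates cullin ligases, was higher (0.66, SE 0.08, adjusted p = 0.00181), as was MDP1 (0.87, adjusted p = 0.00463).

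The share of a readthrough gene in the summed FPKM of its set had a median over the 58 sets of 7.25% in Bmi1 shRNA and 7.98% in control cells. The share ranged over more than 20 percentage points between libraries in 19 sets, with a median range of 13.9 points. The groups did not overlap in 7 sets (12.1%). With 3 against 3 libraries in random order, groups fail to overlap with a probability of 0.1, so nothing is drawn from the count. Among the 7 sets, the share was higher in Bmi1 shRNA in ARPIN-AP3S2 and SLX1A-SULT1A3, and in ZNF670-ZNF695, CRYZL2P-SEC16B, MSH5-SAPCD1 and BORCS8-MEF2B it was lower. After ARPIN-AP3S2 the largest of these with no library listed at 0 was MSH5-SAPCD1, at 23.1% ± 11.5 in Bmi1 shRNA and 42.3% ± 3.69 in control cells (SD, n = 3 each). SLX1A and SULT1A3 have near-identical copies in SLX1B and SULT1A4, so the values of those sets are uncertain.

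Genes of the machinery that ends transcripts moved in both directions. Of 21 tested genes of 3′ end processing 8 were called higher and 3 lower, with a median log2 fold change of -0.02, beside 0.01 over all tested rows. CPSF3, the endonuclease that cuts the RNA, was higher at 6.67 ± 0.281 FPKM in Bmi1 shRNA and 3.66 ± 0.106 FPKM in control cells (SD, n = 3 each; log2 fold change 0.85, adjusted p = 0.000584). NUDT21, the subunit of cleavage factor Im that binds UGUA, was higher at 0.55 (adjusted p = 0.000736) but at -0.02 with the trend of GC and length taken out. The scaffold SYMPK was lower (-0.59, adjusted p = 0.00247), as was CSTF2T, a paralogue of the CstF subunit that binds GU-rich RNA (-0.29, adjusted p = 0.0191).

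Of 24 tested genes of transcription termination and elongation 7 were called higher and 9 lower (median -0.29). LEO1 of the PAF1 complex was higher at 9.14 ± 0.192 FPKM in Bmi1 shRNA and 4.65 ± 0.157 FPKM in control cells (SD, n = 3 each; log2 fold change 0.96, adjusted p = 0.000433). PPP1CB, a catalytic subunit of protein phosphatase 1, was higher by 1.305 (adjusted p = 0.00074), while PPP1R10, the regulatory subunit of the PTW/PP1 phosphatase that slows the polymerase after the poly(A) site, was lower (-0.74, adjusted p = 0.00309). CTDP1, a phosphatase of the polymerase tail, was lower as well (-0.62, adjusted p = 0.00379). The direction was thus mixed within this list.

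Of 15 tested subunits of Integrator, the complex that cuts snRNAs and nascent RNA near promoters, 5 were called higher and 3 lower (median 0.15). INTS13 (0.96, adjusted p = 0.000692) and INTS8 (1.11, adjusted p = 0.00221) were higher, and INTS5 (-0.53, adjusted p = 0.00278) and INTS1 (-0.60, adjusted p = 0.00465) lower. Of 17 tested genes of nonsense-mediated decay 5 were called higher and 7 lower (median -0.09). UPF2 (0.75, adjusted p = 0.0011) and UPF3B (0.93, adjusted p = 0.00121), which link the decay factor UPF1 to the exon junction complex, were higher. SMG5 (-0.55, adjusted p = 0.00242), an adaptor to RNA decay, and SMG6 (-0.71, adjusted p = 0.00456), the endonuclease, were lower. Beside these counts, 40.5% of all tested rows and 53.4% of those of at least 1 FPKM were called; nothing particular to a list is drawn from them.

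The rows whose pattern over the 6 libraries was most like that of RPL36A-HNRNPH2, the named readthrough gene with the largest fitted difference at the pseudocount of 0.1, were SNAPC3 (Pearson r 0.997), DLK2 (0.994) and GALNT8 (0.994) on the log2(FPKM + 0.1) scale. SNAPC3 measured 0.797, 1.16 and 1.14 FPKM in the Bmi1 shRNA libraries, against 0.804, 0.949 and 0.818 FPKM in the control libraries. With a pseudocount of 1 the largest difference was that of ARPIN-AP3S2 instead, since RPL36A-HNRNPH2 is listed at 0 in 3 libraries. The likeness is one of order and spacing over 6 libraries picked from all tested rows, while the range of SNAPC3 was far smaller than that of the readthrough gene.

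At the threshold of 0.1 FPKM, members just inside had mean levels of 0.148 (UBE2F-SCLY) and 0.105 FPKM (TRIM6-TRIM34). The rows just outside had 0.0971 (MSANTD3-TMEFF1), 0.0948 (GPR75-ASB3) and 0.0802 FPKM (CORO7-PAM16). These rows were all near 0 in some library: TRIM6-TRIM34 measured 0.287, 0 and 0.208 FPKM in the Bmi1 shRNA libraries, against 0.134, 0 and 0 FPKM in the control libraries, and GPR75-ASB3 measured 0.0928, 0.128 and 0.195 FPKM in Bmi1 shRNA, against 0.0117, 0.0562 and 0.0852 FPKM in control libraries.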

How the data were processed

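Poly(A) RNA of 6 QBC-939 libraries was sequenced as paired-end reads on an Illumina instrument, per the labels' protocols, which also name adipose material that none of these samples is. The values are FPKM per row as deposited by the authors; the table holds no read counts or coordinates. Bowtie 0.12.2, HISAT2 2.0 and StringTie 1.3.0 are named, with no role or order, per the submitters' processing notes, which also name the mouse build mm8 for these human samples, which leaves the build in doubt. Strand use in counting: not given in the sources used here. Whether reads of genes that overlap on opposite strands were told apart is therefore unknown. A readthrough gene and the genes it joins share a strand, so strand would not separate their reads. Columns headed Sc and Sh were taken as scrambled and Bmi1 shRNA.

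The depth is unknown: steps of whole reads could not be recovered from low values (the commonest ratio between libraries covered at most 4.16% of low rows), so no count test was run. From the deposited FPKM, log2(FPKM + 0.1) was fitted in limma 3.58.1 (R 4.3.3) over the 17473 rows averaging 0.1 FPKM or more, with group as the sole term, eBayes with a trend and Benjamini-Hochberg adjustment over all of these rows. P-values measure the spread between these transfections. Shares are a readthrough gene's part of the summed FPKM of its set. Positions, exons and junction sequences come from GENCODE 29 (GRCh38), where ARPIN-AP3S2 was matched through its older name C15orf38-AP3S2. Whether the deposited values rest on the same exons is not known. The fit was tested on simulated data.

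The members, the gene lists and the tests were chosen with earlier results of these data known. Named are the 12 readthrough genes with the highest mean, every called one, the genes they join, BMI1 and COMMD3, the readthrough genes that share a joined gene, the 3 rows on each side of the threshold, in each list the 2 called genes with the smallest p in each direction, and the 3 rows most like 1 readthrough gene. For other named genes, which make up small counts or were picked on their values, the text says so. A few items are counted but not reported here by name. Alternatives covered the pseudocount, the filter, scaling, the variance prior, a replicate block, a test against a fold of 1.5, removal of the trend with GC content and length, the readthrough FPKM added to the joined genes, and each library left out.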

Additional observations from a re-analysis of the deposited data

How the results depend on the processing

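The numbers of called readthrough genes, 3 higher and 4 lower, kept within 1.5 times under other pseudocounts, scalings, variance priors and a filter of 1 FPKM. Without a filter 1 was lower. Against a fold of 1.5, 437 rows were called (378 higher, 59 lower), with 1 readthrough gene higher (ARPIN-AP3S2) and 0 lower, 2 joined genes higher and 1 lower, 2 termination genes and 0 in each of the other 3 lists; BMI1 kept its log2 fold change of -1.78 at an adjusted p of 0.068. Removing the trend with GC content and length also removes true change that goes with them. That fit held only the 14689 rows (84.1%) with a reference transcript, so its counts are over fewer rows. It called 4707 rows (32.0%, 2337 higher), where the main fit called 40.5% of 17473. It left 1 lower readthrough gene, 14 higher and 9 lower joined genes, 5 genes of 3′ end processing and 7 of nonsense-mediated decay. COMMD3 turned to -0.26 (adjusted p = 0.0201) and the log2 fold change of NUDT21 to -0.021. The cause was not tested. With the readthrough added no set was called in opposite directions and 9 joined genes lost their call. Among joined genes of the named sets called both alone and with it, the sign turned for ARPIN (1.22) and AP3S2 (0.84). It also differed for SENP3 (-0.72), CCL15 (0.39), BORCS8 (-0.36) and C17orf49 (0.50), which were called with it and not alone. Shares had medians of 17.7% in Bmi1 shRNA and 16.6% in control cells over readthrough and upstream gene alone, and of 20.04% and 20.5% over readthrough and downstream gene alone.

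Leaving out 1 library gave 3 to 5 higher and 2 to 4 lower readthrough genes, 1 to 4 sets called in opposite directions and 7 to 11 genes of 3′ end processing; CCL15 was at 0.42 without Bmi1 shRNA replicate 2. Same-numbered libraries did not deviate together (r of -0.003, -0.027 and -0.017). Whether they were handled as pairs is not known, and these values cannot settle it. With the replicate block, 6 readthrough genes (all but DNAJC25-GNG10) and 6 genes of 3′ end processing were called. Count tests were not run because reads could not be recovered. Unknown depth limits what can be said of rows near 0.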
